A study of Mus musculus with 26 samples.

Results

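The comparison concerns 16 RNA libraries immunopurified from cells with an active Drd2 promoter. They were split by how many of their aligned reads the counting placed in no annotated exon of any gene. For each library the records that HTSeq, the read counter, placed in no feature were divided by all records in genes, in no feature, ambiguous between genes or with several alignments. Libraries with a share above 40% are called rich and those at or below 40% poor, so the classes were chosen by a measured value. This split the 16 immunopurified libraries of the first library set (library numbers up to 1823) into 8 rich and 8 poor ones, out of 26 libraries in all. The other 10 are 8 immunopurified libraries of a second set (numbers from 1836) and 2 libraries of unselected input RNA. The counting files do not say where the reads in no feature lie, so they can be intronic, intergenic or from unannotated transcripts. The strand setting of the counting is not given either, so reads on the opposite strand of an exon may be among them.

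All libraries come from the accumbens nucleus, a ventral striatal part of the reward circuit, of adult mice in a long-access study of intravenous cocaine or saline self-administration. The mice carry the transgene of line Drd2-TRAP CP101 on an FVB/N-Swiss Webster background crossed for at least 9 generations to C57BL/6, which puts EGFP on ribosomal protein L10a wherever the Drd2 promoter is active. In the accumbens the promoter works in D2-type medium spiny neurons, and cholinergic interneurons use it as well. Antibodies against EGFP served to pull down polysomes, and every group, controls included, carries the transgene. By their titles the 16 libraries belong to 5 groups: saline (3 libraries), cocaine without escalation of intake, called nonescalating (5), cocaine with escalation, called escalating (2), saline followed by withdrawal (3) and nonescalating cocaine followed by withdrawal (3). The description of the 5 nonescalating libraries carries the word for withdrawal, which is absent from their titles; the titles were followed. Nothing in the labels says that each library is a separate animal, so n is a number of libraries, and the spread behind each p-value may be technical.

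Translating ribosome affinity purification aims at cytoplasmic messenger RNA that is being read by tagged ribosomes. RNA that never leaves the nucleus, such as unspliced precursors and the abundant long noncoding RNA Malat1 of nuclear speckles, is not translated. The level of Malat1 in a pull-down is commonly read as a gauge of nuclear RNA that came along. Reads in introns come mostly from such precursors, and reads between genes can come from genomic DNA or unannotated transcripts.

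The share of reads in no feature, which chose the classes and is given without a test, ran from 45.6% to 62.5% in the 8 rich libraries (median 52.1%) and from 29.7% to 36.4% in the 8 poor ones (median 34.8%). The nearest to the limit were saline replicate 4 at 45.6% and saline withdrawal replicate 3 at 36.4%, so no library lay between them. The rich libraries were saline replicates 1 and 4, nonescalating replicates 2, 4 and 5, escalating replicate 1, saline withdrawal replicate 1 and nonescalating withdrawal replicate 1. Each of the 5 labelled groups thus held libraries of both kinds. Both classes had 3 saline and 5 cocaine libraries (Fisher's exact test, two-sided, p = 1), and 2 of 8 rich against 4 of 8 poor libraries were from withdrawal (Fisher's exact test, two-sided, p = 0.608, adjusted over both tests 1).

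**Figure D1:**
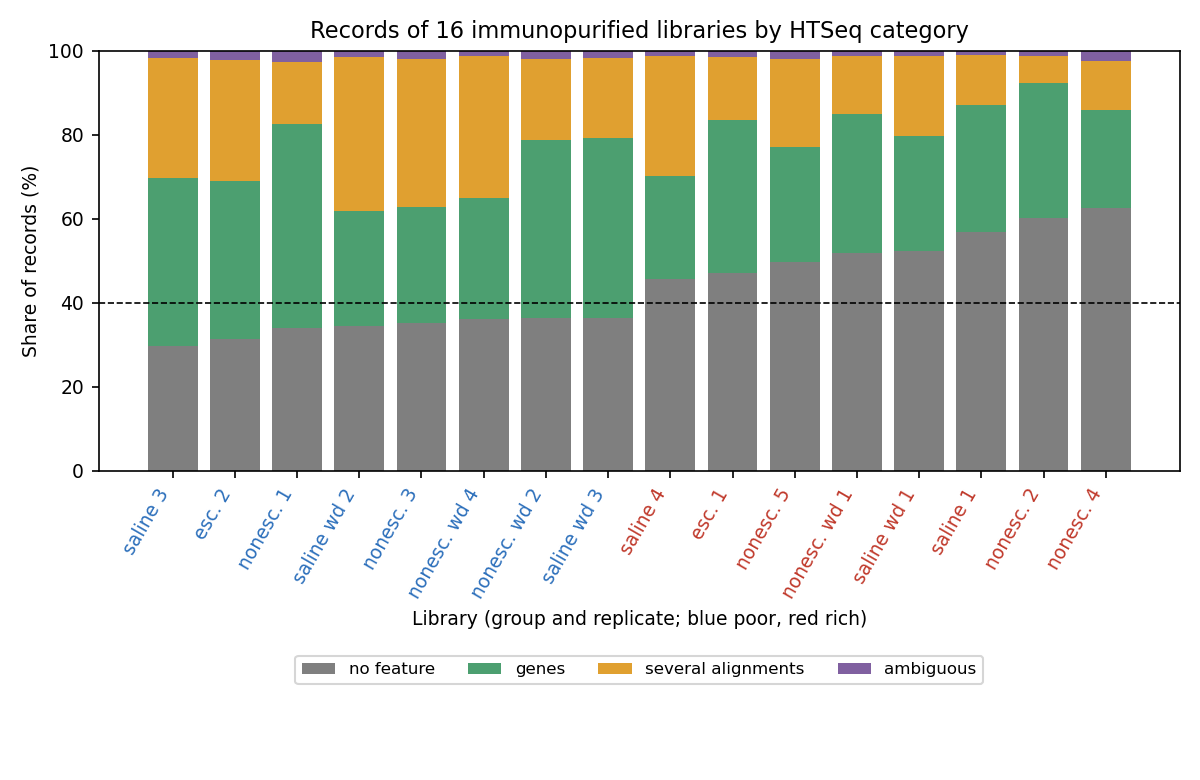
Stacked bars give the share of records (%) that HTSeq placed in no feature, in genes, in several alignments or in an ambiguous position, for each of the 16 immunopurified libraries of the first set in order of the share in no feature (wd, withdrawal; nonesc., nonescalating; esc., escalating). The dashed line marks 40%; the 8 poor libraries (blue labels) end at 36.4% and the 8 rich ones (red labels) begin at 45.6%.

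Other features of the libraries moved with the classes. Reads with several alignments made up 15.9% ± 6.81 (SD, n = 8) of the records of rich libraries and 27.0% ± 8.41 (SD, n = 8) of poor ones. Reads in genes made up 29.3% ± 4.41 (SD, n = 8) and 36.9% ± 8.09 (SD, n = 8). The total in genes was 1.90 to 17.5 M counts (M stands for 1000000 counts) in rich libraries (median 2.84 M) and 3.41 to 14.3 M in poor ones (median 9.60 M), so low levels rest on fewer counts in most rich libraries. Because these shares have the denominator of the rule, or move with depth, they are described and not tested. Among 20 pairs of libraries of 1 group, chi-square per degree of freedom was at least 25.6, so no pair differed by as little as sampling noise.

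At a depth thinned to 1.90 M gene counts, the rich libraries held 15077 ± 1140 (SD, n = 8) detected genes and the poor ones 13937 ± 1142 (SD, n = 8). The difference of 1140 genes did not pass (exact two-sided permutation test, p = 0.0671, adjusted over 2 measures 0.134). It lay between 926 and 1395 when single libraries were left out. The 100 largest genes held 22.9% ± 2.92 (SD, n = 8) of gene counts in rich and 22.4% ± 1.55 (SD, n = 8) in poor libraries (exact two-sided permutation test, p = 0.736, adjusted 0.736). That difference turned to -0.42 points without nonescalating replicate 4. As an alternative to 100, the 500 largest genes gave -2.44 points (exact two-sided permutation test, unadjusted p = 0.0272). The 20 largest genes were another alternative, whose value is not reported here.

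The tagged cell type was visible in both classes. Drd2, the dopamine D2 receptor gene, ran from 247 to 2920.5 CPM in the rich libraries (median 1454) and from 1930.0 to 3026 CPM in the poor ones (median 2342), in counts per 1000000 counts in genes (CPM), scaled with TMM factors. The unscaled input libraries held 296 and 378 CPM of Drd2, below 15 of the 16 immunopurified libraries. Drd1, the receptor gene of the neighbouring projection neurons, ran from 12.5 to 58.0 CPM in the rich libraries (median 22.8) and from 13.1 to 58.0 CPM in the poor ones (median 37.3), against 141 and 137 CPM in the inputs. One rich library, nonescalating replicate 4, stood apart: it had the highest share in no feature (62.5%) and the lowest level of Drd2 (247 CPM, the next rich library being at 881). Results that rest on it are therefore also given without it where that was computed.

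The classes were compared gene by gene with edgeR's quasi-likelihood test on the counts, with agent (saline or cocaine) as a term, over 12790 genes. The rule used only which records fell in genes as a whole, so the relative levels of single genes are a different measure, although it comes from the same libraries. A positive log2 fold change means a higher level in rich libraries, and adjusted p-values follow Benjamini and Hochberg with a threshold of 0.05. Of the genes tested, 1720 passed (13.4%), 964 of them higher (7.54%) and 756 lower (5.91%) in rich libraries. The median change was 1.84 among those higher and -1.003 among those lower, and the median over all tested genes was -0.02. In 191 genes every rich library lay above every poor one (1.49%) and in 131 every rich library lay below (1.02%). In bulk RNA, fewer cells of a type and less RNA per cell cannot be told apart.

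The count depended on what else entered the fit. With the log2 total in genes as a further term 912 genes passed, with the share of several alignments, which differs between the classes, 15, and with either the level of Malat1 or a score of endothelial and mural genes 0 (354 and 929 at an unadjusted p under 0.05 in edgeR). The last 3 terms were added after seeing the data. A class limit of 35% in place of 40%, which moved 4 libraries, left 15. The replicate number as a block, which is not independent of the class, left 74. Of 70 named genes that passed, 55 kept their call with the log2 total, 22 with the block and 8 with the share of several alignments. With each of the other 3 changes 0 kept it. Without nonescalating replicate 4, 1282 genes passed.

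Some nuclear long noncoding RNAs were higher in rich libraries, while most on the list did not pass. Malat1 (chromosome 19, 5795690 to 5802672, minus strand, GRCm38), an RNA retained in nuclear speckles, ran from 26650.0 to 78253 CPM in the rich libraries (median 28299.9) and from 7314 to 19225 CPM in the poor ones (median 11365). All 8 rich libraries lay above all 8 poor ones, and so also within each labelled group (edgeR's quasi-likelihood test, log2 fold change 1.53, SE 0.24, adjusted p = 0.000596). Without nonescalating replicate 4, the highest at 78253 CPM, the change in Malat1 was 1.26 (edgeR, adjusted p = 0.000263). Malat1 was known to separate these libraries when the comparison was chosen, so its direction is no independent finding. The inputs, which were not purified, had 23301 CPM with 43.8% of records in no feature (saline) and 10039 CPM with 25.4% (nonescalating), both unscaled.

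Neat1 (chromosome 19, 5824708 to 5845478, minus strand), the scaffold RNA of paraspeckles, ran from 184 to 376 CPM in the rich libraries (median 312) and from 2.08 to 118 CPM in the poor ones (median 39.6), again without overlap (edgeR's quasi-likelihood test, log2 fold change 2.75, SE 0.52, adjusted p = 0.00211). Kcnq1ot1, the imprinted antisense RNA of the Kcnq1 locus, ran from 227 to 592 CPM in the rich libraries (median 275) and from 28.0 to 183 CPM in the poor ones (median 95.8), and Dleu2, a noncoding host gene of microRNAs, ran from 27.4 to 84.5 CPM in the rich libraries (median 49.4) and from 3.59 to 16.7 CPM in the poor ones (median 12.6). Kcnq1ot1 lies within Kcnq1 on the opposite strand, and the strand setting of the counting is unknown. Neither RNA overlapped between classes (edgeR, log2 fold change 1.72 and 2.29, adjusted p = 0.00196 and 0.00151). Of the 21 tested members of the nuclear noncoding list 5 rose, beside 7.54% of all genes. They were the 4 above and Firre, an RNA that anchors chromatin, at 1.23. A pair of members fell, beside 5.91% of all genes: Peg13 (-0.90), an imprinted noncoding RNA, and 6330403K07Rik (-1.31). Of 9 tested host genes of small nucleolar RNAs none passed in edgeR (median 0.01). From a list of RNAs without a poly(A) tail only 4 histone genes were tested and no small RNA, and none passed (median -1.34). The median of the nuclear noncoding list was 0.14 beside -0.02 over all genes, and -0.10 without nonescalating replicate 4.

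The imprinted neuronal RNAs Meg3 and Rian, also mainly nuclear, did not pass. Meg3 ran from 673 to 4447 CPM in the rich libraries (median 1903) and from 1309 to 5391 CPM in the poor ones (median 1970.4), and the classes overlapped (edgeR's quasi-likelihood test, log2 fold change -0.16, SE 0.31, adjusted p = 0.792). Rian ran from 36.5 to 207 CPM in the rich libraries (median 85.8) and from 70.5 to 206 CPM in the poor ones (median 116), also with overlap (edgeR, log2 fold change -0.42, SE 0.34, adjusted p = 0.449). The unscaled inputs held 9963 and 7208 CPM of Meg3, above every immunopurified library of the set. The sign of the Meg3 difference turned without saline withdrawal replicate 3 (0.089), its highest poor library.

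Within the classes the level of Malat1 was correlated with the share of reads in no feature, though the rank correlation in rich libraries did not pass. Over the 8 rich libraries Pearson's r between the share and log2 CPM was 0.68 (exact permutation p = 0.0432, adjusted over 3 relations 0.0432) and Spearman's rho 0.62 (exact permutation p = 0.115, adjusted 0.115). Over the 8 poor libraries r was 0.77 (exact permutation p = 0.0178, adjusted 0.0267) and rho 0.81 (exact permutation p = 0.0218, adjusted 0.0327). Without the 2 libraries farthest from the median share r was 0.64 and 0.60 (n = 6 each). In the rich class these were nonescalating replicate 4 (62.5%, 78253 CPM) and nonescalating replicate 2 (60.2%, 28777 CPM). Replicate 4 had both the highest share and the highest level of Malat1. The relation without replicate 4 alone was not computed, so how far it rests on that library is not known.

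**Figure D2:**
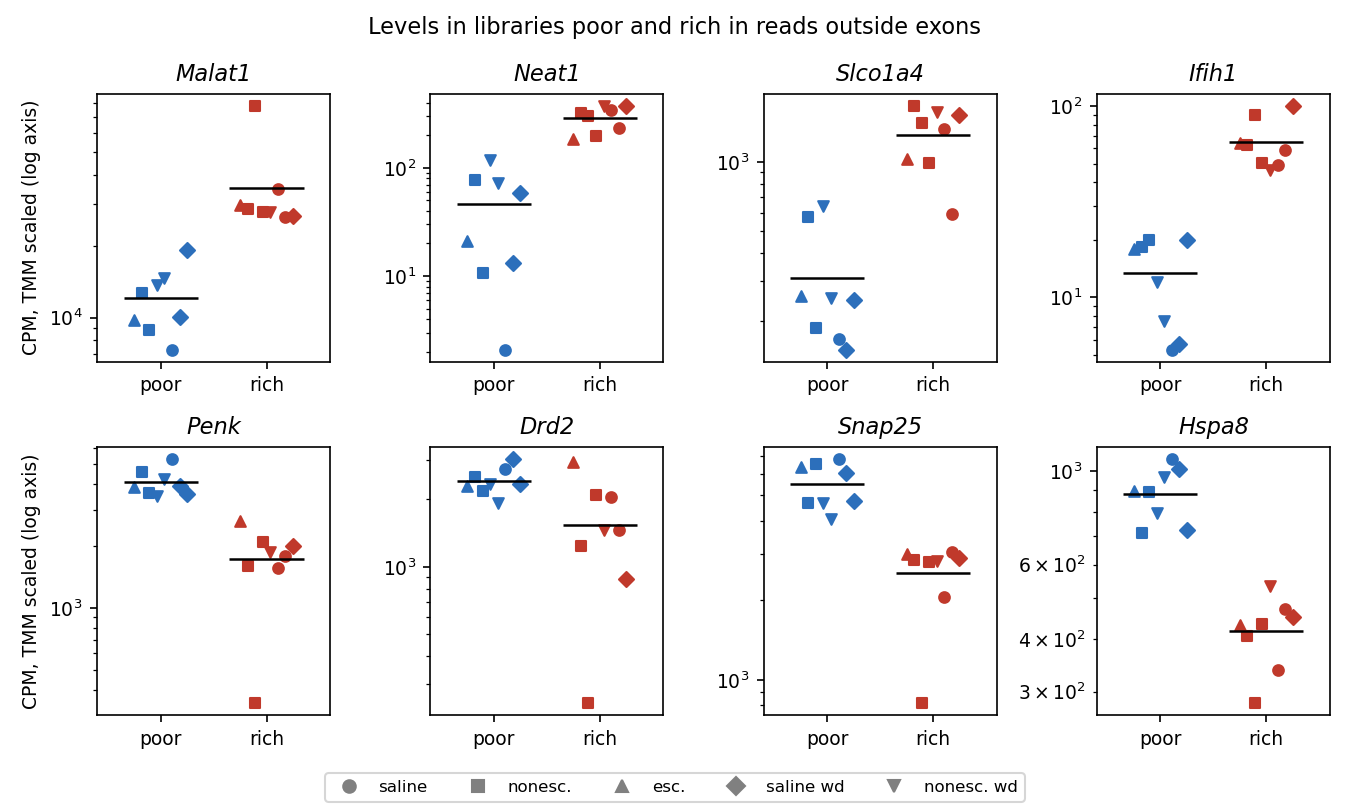
Each point is 1 library, with its level in CPM (TMM scaled, log axis) in poor (blue) and rich (red) libraries and the shape giving the labelled group (nonesc., nonescalating; esc., escalating; wd, withdrawal); the black line is the mean. Malat1, Neat1 and Ifih1 lie higher in every rich library, Slco1a4 overlaps slightly, Penk, Snap25 and Hspa8 lie lower in every rich library, and Drd2 overlaps; the lowest rich point of Drd2, Penk and Snap25 is nonescalating replicate 4.

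Most genes of blood vessels were higher in rich libraries. Of 18 tested markers of endothelial and mural cells, the lining and the contractile wall of vessels, 11 rose and 0 fell, beside 7.54% and 5.91% of all genes, and the list's median was 1.10. Slco1a4 (chromosome 6, 141805440 to 141856199, minus strand), a transporter of the blood-brain barrier, ran from 591 to 1765 CPM in the rich libraries (median 1443) and from 150.2 to 643 CPM in the poor ones (median 251). The lowest rich library lay just under the highest poor one, and within each of the 5 labelled groups every rich library was above every poor one (edgeR's quasi-likelihood test, log2 fold change 2.16, SE 0.28, adjusted p = 0.000154). Tek, the angiopoietin receptor of endothelium, ran from 159.8 to 407 CPM in the rich libraries (median 252) and from 33.6 to 123 CPM in the poor ones (median 70.8), and Pdgfrb, the growth factor receptor of pericytes, ran from 163 to 459 CPM in the rich libraries (median 311) and from 41.7 to 160.0 CPM in the poor ones (median 91.3). Both were separated (edgeR, log2 fold change 1.79 and 1.68, adjusted p = 0.000503 and 0.00073). Flt1, a receptor for vascular endothelial growth factor, overlapped but passed (edgeR, log2 fold change 1.38, SE 0.27, adjusted p = 0.00293).

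Together the 18 vascular markers held from 0.516% to 1.07% of gene counts in the rich libraries (median 0.870%) and from 0.163% to 0.575% in the poor ones (median 0.271%). The inputs held 0.0554% and 0.0226%, below every immunopurified library of the set, and no member was without counts. The sum moved with the class beside each group of genes described here, and its part in the other results was not tested beyond the fit with its score as a term.

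Among the 12 genes with the smallest p in the upward direction were further genes known from endothelium. Egfl7, a protein secreted by endothelial cells, ran from 123 to 409 CPM in the rich libraries (median 287) and from 18.8 to 125 CPM in the poor ones (median 50.8), with saline replicate 4, the lowest rich library, just under the highest poor one (edgeR's quasi-likelihood test, log2 fold change 2.33, SE 0.30, adjusted p = 0.000154). Robo4, an endothelial guidance receptor, ran from 114 to 314 CPM in the rich libraries (median 229) and from 41.7 to 106 CPM in the poor ones (median 65.1) (edgeR, log2 fold change 1.75, SE 0.24, adjusted p = 0.000182), and Ccm2l, a relative of a cavernous malformation protein, ran from 102 to 724 CPM in the rich libraries (median 261) and from 27.6 to 73.6 CPM in the poor ones (median 45.5) (edgeR, log2 fold change 2.63, SE 0.35, adjusted p = 0.000154). Neither overlapped between classes. Others of the 12 have broader roles: Sgms1 makes sphingomyelin (2.06), Utrn links actin to the membrane (1.41), Hmcn1 belongs to the extracellular matrix (1.95), Eogt adds sugars to proteins with EGF repeats (2.01), Gpcpd1 splits glycerophosphocholine (1.77), Ablim1 binds actin (1.44), Srgap2 acts on small GTPases (1.43) and Ccdc141 is a coiled-coil protein (2.51). In all of these the rich libraries lay above the poor ones within each of the 5 labelled groups. The 12 were chosen by this test in the same libraries, so that order is no further evidence. The escalating group holds only 1 rich and 1 poor library, and the share of all genes with such an order was not computed.

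Many genes of the interferon response were also higher. The list was put together after values had been seen and is a description only. Of 30 tested members 16 rose and 0 fell, beside 7.54% and 5.91% of all genes, with a median of 1.92. Ifih1, a sensor of double-stranded RNA, ran from 46.1 to 100.3 CPM in the rich libraries (median 61.0) and from 5.33 to 19.9 CPM in the poor ones (median 15.02), and no rich library reached down to a poor one (edgeR's quasi-likelihood test, log2 fold change 2.31, SE 0.38, adjusted p = 0.000934). Helz2, a helicase (2.16), and Gbp9, a guanylate-binding protein (2.03), were separated as well. Summed over the list the share was from 0.117% to 0.462% of gene counts in the rich libraries (median 0.232%) and from 0.0412% to 0.111% in the poor ones (median 0.0742%), again without overlap, and 0.0182% and 0.0193% in the inputs.

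The list of splicing genes also holds Ogt, which is not a splicing factor. Of the 32 tested members 9 rose and 1 fell, beside 7.54% and 5.91% of all genes, with a median of 0.41. Luc7l2, a component near the U1 particle, ran from 203 to 489 CPM in the rich libraries (median 258) and from 60.7 to 191 CPM in the poor ones (median 97.9) (edgeR's quasi-likelihood test, log2 fold change 1.51, SE 0.25, adjusted p = 0.000815). Ogt, which adds N-acetylglucosamine to nuclear proteins, ran from 387 to 953 CPM in the rich libraries (median 526) and from 120.1 to 343 CPM in the poor ones (median 232) (edgeR, log2 fold change 1.30, SE 0.21, adjusted p = 0.000725), and the kinases of splicing factors Clk1 (1.07) and Clk4 (1.25) rose too. These 4 were separated between classes. The member that fell was Hnrnpa2b1 (-0.65), an RNA-binding protein of the nucleus.

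Among messenger RNAs of the tagged neurons, Penk and most markers shared by both projection neuron types were lower in rich libraries, while Drd2 itself did not pass. Penk (chromosome 4, 4133531 to 4138819, minus strand), the enkephalin precursor of D2 neurons, ran from 345 to 2658 CPM in the rich libraries (median 1820.4) and from 3524 to 5308 CPM in the poor ones (median 3907). Every rich library lay below every poor one (edgeR's quasi-likelihood test, log2 fold change -1.23, SE 0.25, adjusted p = 0.0035, and -1.08 without nonescalating replicate 4). Drd2 itself overlapped and did not pass (edgeR, log2 fold change -0.65, SE 0.29, adjusted p = 0.151), but passed without escalating replicate 1, its highest rich library (-0.87, edgeR, adjusted p = 0.0409). Adora2a, the adenosine receptor gene of the same cells, did not pass (edgeR, log2 fold change -0.59, SE 0.32, adjusted p = 0.235). Of 10 tested D2 markers 1 fell, Penk, and 1 rose, Ptprm (0.87), a receptor phosphatase, counts near the 5.91% and 7.54% of all genes, and the median was -0.68. Ptprm lost its call without saline withdrawal replicate 2 (0.77).

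Of 18 markers shared by both kinds of medium spiny neuron, 13 fell and 0 rose, beside 5.91% and 7.54% of all genes. All 18 had negative changes and the median was -0.82. Pde1b, a phosphodiesterase, ran from 45.04 to 276 CPM in the rich libraries (median 249.7) and from 381 to 701 CPM in the poor ones (median 509) (edgeR's quasi-likelihood test, log2 fold change -1.24, SE 0.26, adjusted p = 0.00423). Rasd2, a striatal GTPase (-1.18), and Arpp21, a phosphoprotein regulated by cyclic AMP (-0.91), were separated as well. Together the 18 markers held from 0.388% to 1.30% of gene counts in the rich libraries (median 0.977%) and from 1.45% to 1.86% in the poor ones (median 1.65%), and the inputs held 0.978% and 0.857%. The rich libraries thus reached from below the inputs to above them, and all poor libraries were above both.

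Presynaptic genes, a list put together after values had been seen, fell in 20 of 30 tested members and rose in 0 (median -0.93). Over all genes 5.91% fell and 7.54% rose. Snap25, a core protein of vesicle fusion, ran from 817 to 3038 CPM in the rich libraries (median 2831) and from 4042 to 6836 CPM in the poor ones (median 5383) (edgeR's quasi-likelihood test, log2 fold change -1.12, SE 0.21, adjusted p = 0.00228). Gad2, a synthetic enzyme of the transmitter GABA, ran from 242 to 997 CPM in the rich libraries (median 779) and from 1231 to 1926 CPM in the poor ones (median 1678) (edgeR, log2 fold change -1.15, SE 0.21, adjusted p = 0.00188). Syt1, the calcium sensor of release, ran from 264 to 531 CPM in the rich libraries (median 432) and from 674 to 1021 CPM in the poor ones (median 756) (edgeR, log2 fold change -0.90, SE 0.18, adjusted p = 0.00286), and was named after its values were seen. None of the 3 overlapped. The summed share was from 0.545% to 1.31% of gene counts in the rich libraries (median 1.12%) and from 1.74% to 2.26% in the poor ones (median 1.91%).

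Of 59 tested synaptic genes of great length, whose introns span great distances, 17 fell and 0 rose in rich libraries. The median was -0.56, and over all genes 5.91% fell and 7.54% rose. Rbfox1, a neuronal splicing factor, ran from 120.2 to 503 CPM in the rich libraries (median 344) and from 617 to 926 CPM in the poor ones (median 777) (edgeR's quasi-likelihood test, log2 fold change -1.23, SE 0.24, adjusted p = 0.00257). Dlg2, a scaffold of the postsynaptic density (-0.95), and the potassium channel subunits Dpp6 (-1.30) and Dpp10 (-1.47) were separated too. The summed share was from 0.610% to 1.01% of gene counts in the rich libraries (median 0.767%) and from 1.13% to 1.36% in the poor ones (median 1.25%). These counts are of exonic reads as HTSeq assigned them, so intronic reads of the same genes are not part of them. Meis2 and Pde10a are in this list and in that of shared projection neuron markers.

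Several chaperones and enzymes of energy metabolism were lower, and none rose. Hspa8, a constitutive heat shock protein, ran from 282 to 533 CPM in the rich libraries (median 433) and from 711 to 1068 CPM in the poor ones (median 893), and every rich library was lower (edgeR's quasi-likelihood test, log2 fold change -1.08, SE 0.17, adjusted p = 0.000593). Of 28 tested chaperones, again listed after values were seen, 15 fell and 0 rose (median -0.88), beside 5.91% and 7.54% of all genes. Dnaja2, a partner of Hspa8, was among those that fell at -1.36, and Hsp90aa1 at -1.32. Of 74 nuclear genes of oxidative phosphorylation 12 fell and 0 rose (median -0.69), beside the same shares, and 71 had negative changes. The lists were not matched to all genes by level: 21.0% fell in the quintile of genes with the highest mean level and 0.156% in the lowest. Atp5b, the catalytic subunit of ATP synthase, ran from 274 to 1461 CPM in the rich libraries (median 1168) and from 1550.3 to 2703 CPM in the poor ones (median 2248) (edgeR, log2 fold change -1.002, SE 0.23, adjusted p = 0.00771). Genes of ribosomal proteins fell in 4 of 78, beside 5.91% of all genes, with a median of -0.39 and 72 negative changes. Rpl10a, the gene whose protein carries the EGFP tag, ran from 107 to 275 CPM in the rich libraries (median 222) and from 139 to 458 CPM in the poor ones (median 368) and overlapped (edgeR, log2 fold change -0.77, SE 0.24, adjusted p = 0.0401). Its call was lost in 10 of the 16 fits that left out 1 library each, nonescalating replicate 4 among them.

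The rest of the 12 genes with the smallest p in the downward direction had varied roles. Got1, an aspartate aminotransferase, ran from 115 to 271 CPM in the rich libraries (median 189.6) and from 279 to 630.4 CPM in the poor ones (median 439) (edgeR's quasi-likelihood test, log2 fold change -1.33, SE 0.21, adjusted p = 0.000725). Atp1b1, a subunit of the sodium pump, ran from 244 to 706 CPM in the rich libraries (median 611) and from 918 to 1849 CPM in the poor ones (median 1248) (edgeR, log2 fold change -1.20, SE 0.20, adjusted p = 0.00102). Ywhab, a 14-3-3 protein (-1.07), Gda, a guanine deaminase (-1.43), Gprasp1, which sorts receptors (-0.96), Cnksr2, a synaptic scaffold (-1.17), Pak3, a kinase (-1.38), Pja1, a ubiquitin ligase (-1.91), and Wdr83os (-1.41) completed the 12. All 12 were separated between classes, beside 1.02% of all genes in that direction. They were chosen by their p in the same libraries, so the separation is no further evidence.

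**Figure D3:**
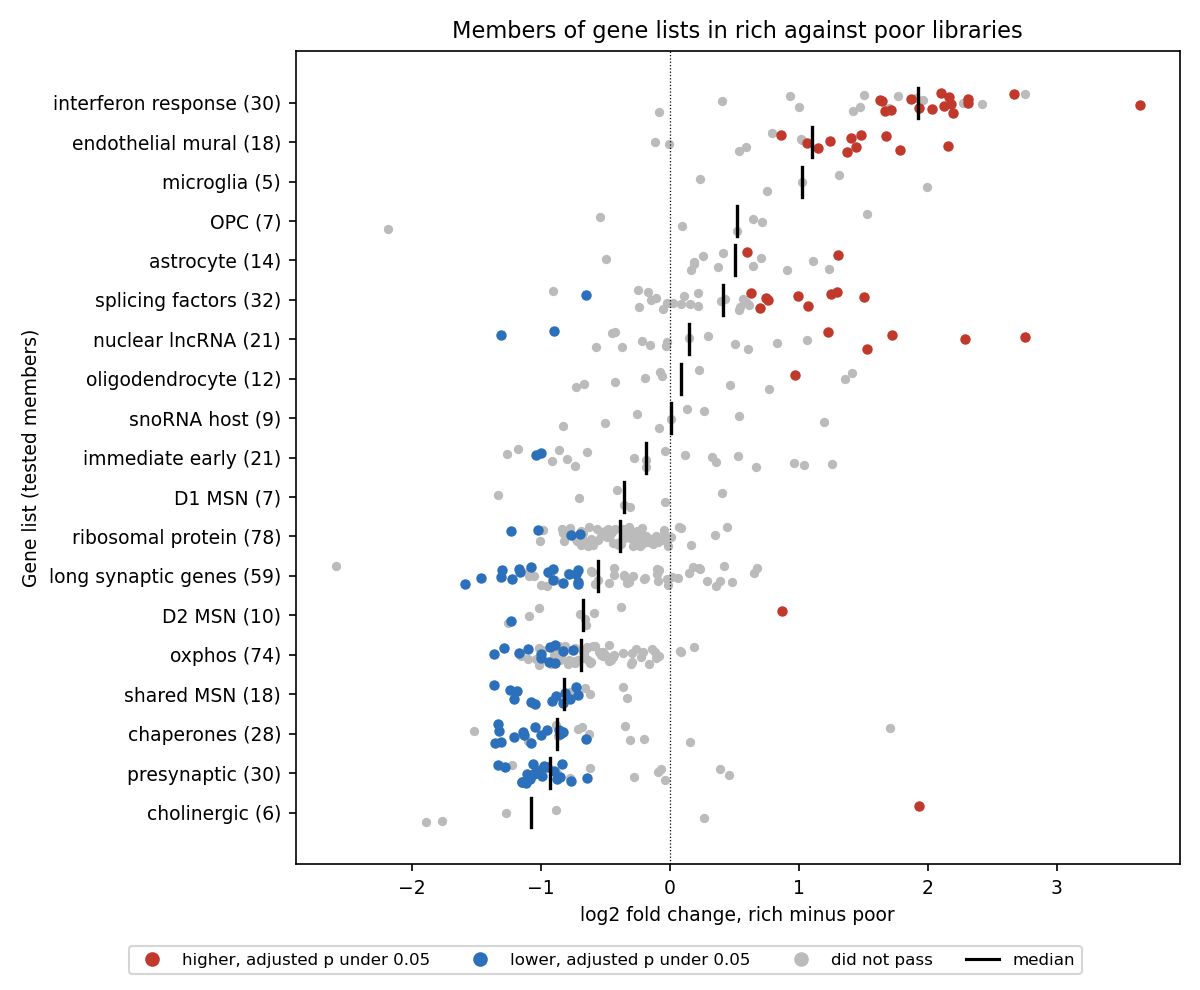
Each point is a tested gene of the list named on the left (number of tested members in brackets), placed by its log2 fold change of rich against poor libraries. Red and blue points passed an adjusted p of 0.05 in edgeR's quasi-likelihood test, grey ones did not, and black lines are list medians, such as 1.92 for the interferon response and -0.93 for presynaptic genes.

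Without nonescalating replicate 4 the median was 1.19 for endothelial and mural genes, 1.93 for the interferon response, 0.31 for splicing, -0.72 for shared projection neuron markers, -0.86 for presynaptic, -0.53 for long synaptic, -0.87 for chaperone, -0.63 for oxidative phosphorylation and -0.43 for ribosomal protein genes. The change without it was 2.78 in Neat1, 2.16 in Slco1a4, -0.99 in Snap25 and -1.01 in Hspa8, and each of these 4 genes kept its call.

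Of the markers of other cells some passed, beside 7.54% higher and 5.91% lower over all genes, and counts this small are near those shares. Of 14 tested astrocyte genes 2 rose, Glul, the glutamine synthetase (0.59), and S1pr1, a sphingolipid receptor also found in endothelium (1.30), with a median of 0.50 (0.21 without nonescalating replicate 4). Of 12 oligodendrocyte genes 1 rose, Mal, a myelin protein (0.97), with a median of 0.08. No member passed among 5 tested microglial genes (median 1.02, and 0.24 without nonescalating replicate 4), 7 genes of oligodendrocyte precursors, 3 of cortical glutamatergic neurons, 2 ependymal, 4 GABA interneuron and 7 D1 neuron genes. Of the 6 tested cholinergic genes 1 rose, Zic4, a transcription factor (1.93), while 4 had negative changes and the list's median was -1.08. Chat, the acetylcholine synthetic enzyme, ran from 0 to 16.7 CPM in the rich libraries (median 1.75) and from 0 to 24.9 CPM in the poor ones (median 12.2) and did not pass. Of 3 blood genes Hba-a2, a haemoglobin chain, rose (2.21) at no more than 27.5 CPM. Of the 16 fits that left out 1 library each, 12 lost Glul, 12 Mal, 10 Hba-a2, 8 Zic4 and 5 S1pr1, so these calls were near the threshold.

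Of 21 tested immediate-early genes, which neuronal activity turns on, 0 rose and 2 fell, Fosl2, a partner of Jun proteins (-1.04), and Homer1, a postsynaptic adaptor (-1.0004), with a median of -0.19, and 2 of 21 is near the 5.91% of all genes that fell. Egr1, an activity-induced transcription factor, ran from 82.8 to 744 CPM in the rich libraries (median 234) and from 387 to 599.7 CPM in the poor ones (median 455) and did not pass (edgeR's quasi-likelihood test, log2 fold change -0.74, SE 0.29, adjusted p = 0.0927). Fos was not tested: it had 127 counts over the 16 libraries and 0 in 8 of them. Of the 16 fits that left out 1 library each, 9 lost Fosl2 and 11 Homer1, that without nonescalating replicate 4 among both.

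Calls were also counted by gene structure, taken from GENCODE M21 (GRCm38) for the 94.2% of tested genes that matched by symbol or synonym. Among protein-coding genes 6.71% rose and 6.35% fell. Among 79 genes annotated as antisense 18 rose and 0 fell, 62 had positive changes, and the median was 1.11. Among 738 genes known only by a sequence accession 133 rose and 8 fell (median 1.31). Noncoding genes nested in an intron of another gene rose in 15 and fell in 1 of 45 (median 1.84), while protein-coding genes in that position rose in 17 and fell in 13 of 290. These are counts across genes, which are not independent replicates.

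For the antisense genes the strand setting of the counting decides what their counts hold, and it is not given in the sources used here. Sorbs2os ran from 38.7 to 107 CPM in the rich libraries (median 80.001) and from 1.74 to 17.8 CPM in the poor ones (median 8.51), and its partner Sorbs2, an adaptor of the actin skeleton, rose as well (edgeR's quasi-likelihood test, log2 fold change 3.002 and 0.94, adjusted p = 0.000263 and 0.00338). Dnm3os ran from 22.7 to 83.2 CPM in the rich libraries (median 53.2) and from 2.90 to 22.3 CPM in the poor ones (median 4.46), and its partner Dnm3, a dynamin, did not pass (edgeR, log2 fold change 2.86 and -0.13, adjusted p = 0.0012 and 0.699). Of 17 antisense genes that rose and had a tested partner, the partner rose in 4 and fell in 0, beside 4 partners that rose among 53 of antisense genes that did not rise and 7.54% of all genes. Reads of an antisense gene and of unspliced RNA of its partner cannot be told apart here. These genes were chosen after their values were seen.

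Long genes held more calls in both directions. In the lowest quintile of genes by span 3.53% rose and 5.48% fell, against 10.6% and 9.75% in the highest. Across 12047 genes Spearman's rho of the change was 0.06 with span, 0.11 with exonic length and 0.02 with GC content, and -0.24 with the mean level over 12790 genes, given as descriptions across genes that share libraries. In the quintile with the highest mean level 10.5% rose and 21.0% fell, and in the lowest quintile 4.69% and 0.156%, where few counts limit what could pass.

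**Figure D4:**
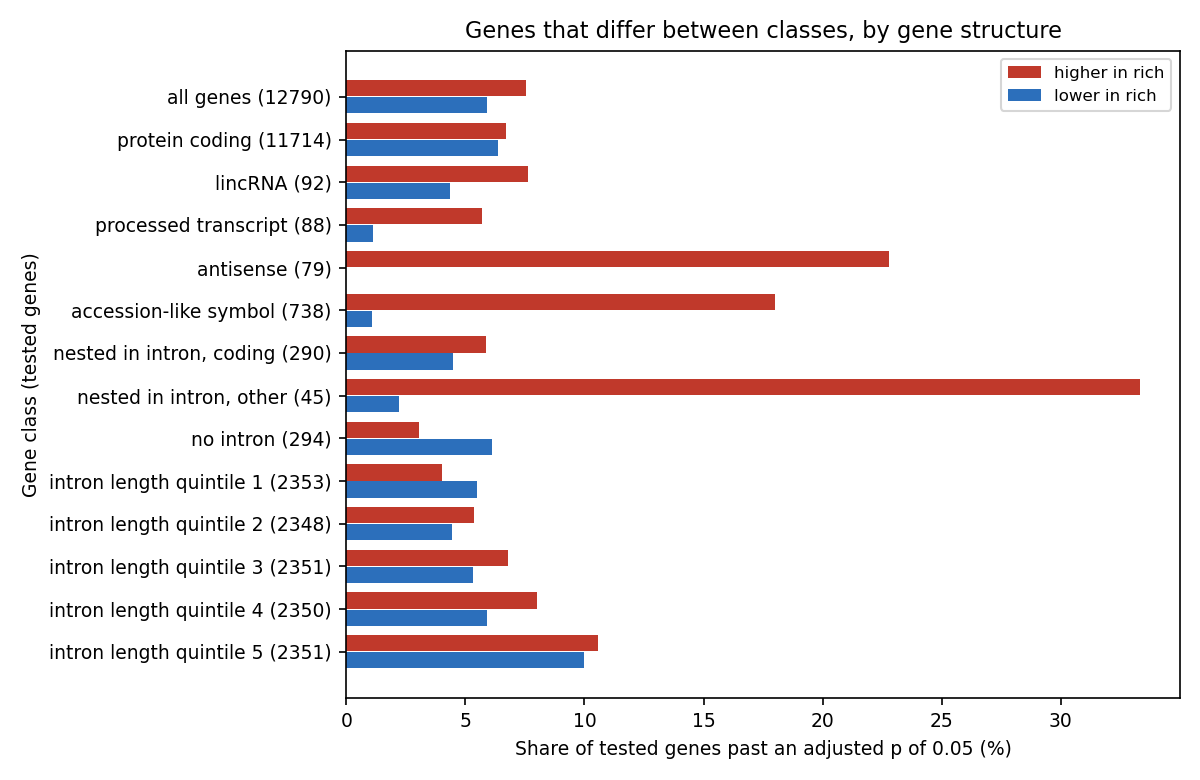
Bars give the share (%) of tested genes of each class that rose (red) or fell (blue) in rich libraries at an adjusted p of 0.05 in edgeR's quasi-likelihood test, with the number of tested genes in brackets. Over all genes the bars reach 7.54% and 5.91%; antisense genes reach 22.8% and 0%, and noncoding genes nested in introns 33.3% and 2.22%.

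The difference between classes was next compared between agents. Within saline libraries (3 rich, 3 poor) 248 genes passed (1.94%) and within cocaine libraries (5 rich, 5 poor) 179 (1.4%), from 1 fit that shares the spread over all 16 libraries. All 1720 genes that passed in the pooled test had the same sign in saline and in cocaine libraries. The pooled test chose these genes from the same libraries, so the shared sign is no independent agreement. Malat1 differed by 1.27 in saline (SE 0.39) and 1.69 in cocaine libraries (SE 0.31), and Penk by -1.26 (SE 0.42) and -1.22 (SE 0.33). Slco1a4 differed by 2.67 (SE 0.46) and 1.85 (SE 0.34). Tested as an interaction in edgeR, the class effect differed between agents in 0 genes (0.0%), with 657 at an unadjusted p under 0.05, and in 24 with DESeq2.

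The agent itself gave no call beside the class. The agent term pools libraries with and without escalation and withdrawal, and 0 calls do not show that levels were alike. With the class as a term, 0 of 12790 genes differed between the 10 cocaine and 6 saline libraries in edgeR's quasi-likelihood test (0.0%, 501 at an unadjusted p under 0.05), and without it also 0 (353 at that limit). For Penk the change of cocaine against saline was -0.09 (edgeR, adjusted p = 0.999), and for Malat1 0.18 (edgeR, adjusted p = 0.999).

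The 8 immunopurified libraries of the second set, which the rule did not use, let the same measure be read elsewhere. They are 3 saline withdrawal and 5 nonescalating withdrawal libraries, with 31.0% to 50.3% of records in no feature and 1.54 to 3.42 M counts in genes. Their replicate numbers recur from the first set, and the labels do not say whether they come from the same animals. The level of each gene was fitted in edgeR on the share, per 10 percentage points, with agent as a term. Of 12076 genes 2 passed (0.0166%), Slco1a4 (slope 2.26, SE 0.28, adjusted p = 0.00431) and Dock6, an exchange factor for small GTPases (slope 2.96, SE 0.46, adjusted p = 0.0352). DESeq2 called 80, and leaving out single libraries gave 0 (without saline withdrawal replicate 2 or nonescalating withdrawal replicate 3) to 22 (without nonescalating withdrawal replicate 5).

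Far more genes shared the direction than passed. Of 824 genes that rose in the first set and were tested in the second, 744 (90.3%) had a positive slope, beside 50.2% of all 11442 genes tested in both. Of 750 that fell, 633 (84.4%) had a negative slope, beside 49.8%. The median slope was 1.2005 for the genes that rose and -0.29 for those that fell. At an unadjusted p under 0.05 in the second set were 242 of the former and 41 of the latter, each with the same sign as in the first set. Genes move together within a library, so these counts rest on 8 libraries and not on the number of genes. Across the 11442 genes Pearson's r between the slopes of both sets was 0.42 and Spearman's rho 0.39, and 0.63 and 0.52 over the 4927 genes whose mean log2 CPM reached 5.

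Malat1 ran from 7534 to 35957 CPM in the second set and followed the share there (Pearson's r 0.89, exact permutation p = 0.00318, adjusted over the 3 relations 0.00952; Spearman's rho 0.88, exact permutation p = 0.00724, adjusted 0.0217; r without the 2 farthest libraries 0.91, n = 8 and n = 6). These correlations had no agent term. In this set the share also moved with agent: it was 31.0% to 40.6% in saline and 37.1% to 50.3% in cocaine libraries. With agent as a term, the slope of Malat1 in edgeR was 0.98 per 10 points (SE 0.26, adjusted p = 0.472). Meg3, which did not differ between classes in the first set by the test, had a slope of 1.18 (SE 0.43, adjusted p = 0.725), and Penk one of -0.55 (SE 0.24, adjusted p = 0.842). None of these 3 slopes passed.

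By list, the endothelial and mural genes had a positive slope in 17 of 18 members (median 1.45) and the nuclear noncoding RNAs in 18 of 20 (median 0.71). The interferon list had 23 of 26 positive (median 1.79). The shared projection neuron markers had a negative slope in 16 of 18 members (median -0.27), the presynaptic genes in 25 of 30 (median -0.41), the chaperones in 21 of 27 (median -0.27) and oxidative phosphorylation in 58 of 74 (median -0.38). The long synaptic genes were split at 37 negative of 58 (median -0.19). The vascular share of gene counts was 0.0497% to 0.269% in these 8 libraries, below every rich library of the first set. Records with several alignments made up 19.9% to 41.2% there, lowest in the library with the highest share in no feature but highest in one with a share of 44.1%, and their part in these slopes was not tested.

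**Figure D5:**
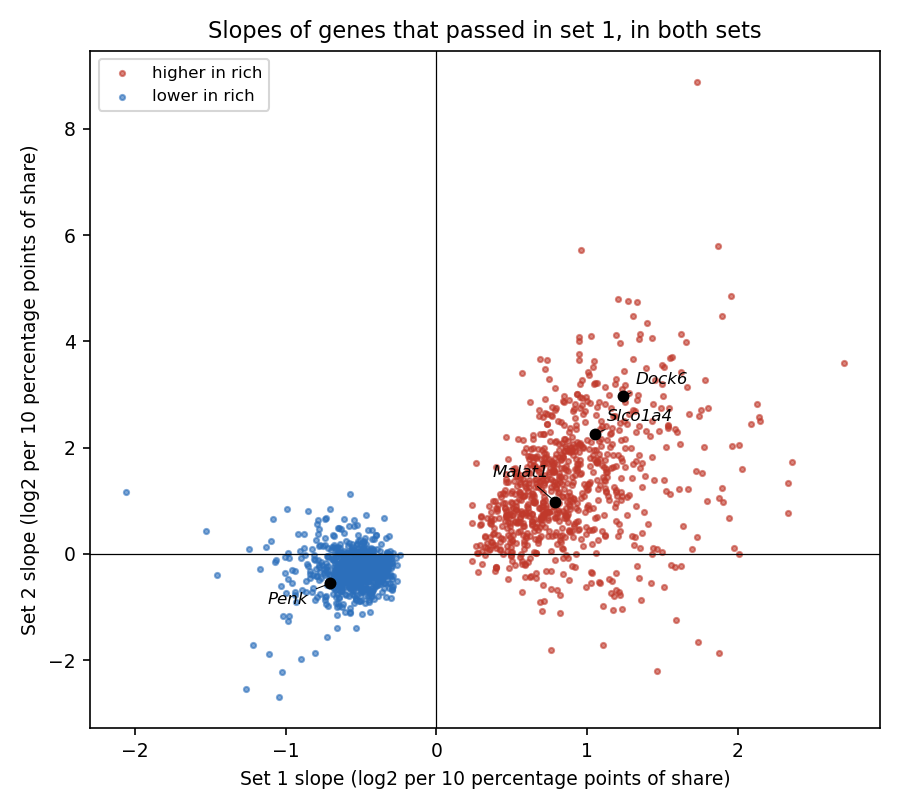
Each point is a gene that passed between rich and poor libraries in the first set, placed by its slope on the share of reads in no feature (log2 per 10 percentage points) in the first set (horizontal) and in the second set (vertical). Of the genes higher in rich libraries (red) 90.3% lie above 0 on the vertical axis, and of those lower (blue) 84.4% lie below it; Malat1, Slco1a4, Dock6 and Penk are marked in black.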

How the data were processed

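Each deposited file gives whole-number read counts per gene symbol for 1 library, not normalized by the authors, with HTSeq summary rows. The submitters' processing notes name STAR 2.0.0e, HTSeq and the build mm10. The annotation, strand setting and HTSeq version were not given in the sources used here. Summary rows served only for the shares and stayed out of library sizes and tests. The classes, genes and lists were chosen with earlier results of these data known; the interferon, chaperone and presynaptic lists were put together after values of this comparison had been seen.

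Tests used edgeR 4.0.16 (quasi-likelihood, robust, TMM, filterByExpr with a minimum count of 10, Benjamini-Hochberg, threshold 0.05) in R 4.3.3, with agent and class as terms; DESeq2 1.42.0 and limma 3.58.1 were alternatives. Each SE was taken as the absolute log2 fold change over the root of F. The procedure was tested on simulated data. A depth of 1.90 to 17.5 M counts means that 3 counts correspond to 0.171 to 1.58 CPM in the 16 libraries. Named genes were Malat1, Neat1, Meg3, Rian, Drd2, Adora2a, Penk, Drd1 and Fos, the 12 smallest p in each direction among genes past the threshold (mean log2 CPM 2 or more, predicted symbols left out), and up to 4 members of each list with the smallest p, in both sets; Dock6, Syt1, Firre, Peg13, 6330403K07Rik, Hnrnpa2b1, Sorbs2os, Dnm3os and their partners, were added after their values were seen. Some genes that the rule names are not reported here. Gene positions and classes are from GENCODE M21. Alternatives chosen with the design were other tests, scalings, filters, covariates, class limits, the share as a continuous term, the replicate number as a block and each library left out in turn; those added after seeing the data were thinning and terms for the vascular score, Malat1 and several alignments.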

Additional observations from a re-analysis of the deposited data

Results flagged for a closer look

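In 160 sets of 8 unlogged values (named genes and library measures, each within rich or within poor libraries), the highest or lowest library was compared with its nearest neighbour by Dixon's test. For normally distributed values chance gives about 1 in 20. Many of these genes were chosen by this comparison and genes move together within a library, so the sets are not independent and their count cannot be set against that rate. The highest or lowest library stood apart in 18.

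Nonescalating replicate 4 was the library in 11 of these, all among the rich libraries. It was the lowest for neuronal genes. Penk, the enkephalin precursor, was at 345 CPM, with the next library at 1568. Snap25, of vesicle fusion, was at 817 (next 2062), and Gad2, which makes GABA, at 242 (next 676). Pde1b and Rasd2, both of striatal projection neurons, were at 45.04 (next 180.1) and 70.2 (next 239.8). Atp1b1, of the sodium pump, was at 244 (next 496), Atp5b, of ATP synthase, at 274 (next 939), and the kinase Pak3 at 26.7 (next 58.3). It was the highest for Malat1 at 78253 (next 34689), Ogt at 953 (next 644) and Sgms1 at 1125 (next 665).

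Saline replicate 1 was the highest rich library for Ccm2l at 724 CPM (next 379), Dock6 at 1616 (next 1023) and Zic4 at 185 (next 83.0). Escalating replicate 1 had the highest total in genes of the rich libraries, 17.5 M counts (M stands for 1000000; next 6.12 M).

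Among poor libraries, Ablim1 was highest in nonescalating withdrawal replicate 2 at 459.8 CPM (next 269), Hba-a2 in nonescalating replicate 1 at 8.74 (next 2.78) and Meg3 in saline withdrawal replicate 3 at 5391 (next 2239).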

How the results depend on the processing

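A limit of 45%, or a share over genes and no feature alone, gave the same classes and so tests nothing. Of 70 named calls, DESeq2 kept 70, voom, median-of-ratios scaling and no filter 66 each, the log2 total 55, the replicate block 22, the share of several alignments 8, and the 35% limit, the vascular score and Malat1 0 each. Of 24 list medians, 9 turned sign with Malat1 added, 5 with the log2 total, 3 with the block and at most 2 in each other setting run without leaving out a library. DESeq2 called 1606 genes higher. With the log2 total added 912 passed (587 higher, 325 lower). With a limit of 35%, 15 passed (12 and 3), Meg3 turned to 0.22, and the medians were -0.29 for long synaptic and -0.61 for presynaptic genes. With the share as a continuous term 1203 genes were lower, Meg3 was 0.076 and the immediate-early median -0.62.

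The remaining terms were added after seeing the data, and each moves with the class. With the endothelial and mural score 0 genes passed in either direction (929 at an unadjusted p under 0.05, edgeR), Rian was 0.40 and Zic4 -0.20, and medians were 3.92 for glutamatergic, 0.036 for endothelial and mural, 1.08 for interferon and -0.44 for chaperone genes. With the level of Malat1 0 passed (354, edgeR), and these turned sign: Adora2a 0.64, Atp5b 0.41, Drd2 0.52, Gad2 0.0090, Homer1 0.079, Penk 0.017, Rpl10a 0.12, Snap25 0.16 and Zic4 -0.40. Medians then were -0.0056 for oxidative phosphorylation, -0.14 splicing, 0.33 D2, -0.020 shared projection neuron, -0.72 astrocyte, -0.65 microglial, 0.97 ependymal, -0.27 chaperone and -0.086 presynaptic. With the share of several alignments 15 passed (13 and 2), and the ribosomal median was -0.085. The cause of these shifts was not tested.

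The replicate number as a block left 74 genes (62 higher, 12 lower, 72 shared) and turned Rian to 0.14. Medians with the block were 0.73 for small nucleolar host, -2.24 for histone and -0.34 for oligodendrocyte precursor genes. In the second set the block gave 7 slopes. Whether the replicate numbers pair the libraries was not tested. Deviations from group means correlated at -0.19 to 0.34 over 22 pairs with the same number (median 0.11). Over 78 other pairs they correlated at -0.36 to 0.31 (median -0.03), and 6 of 16 libraries correlated best with one of their own number. The number is not independent of the class: 4 of 5 libraries numbered 1 are rich and all 3 numbered 3 are poor. With the block Neat1 (adjusted p = 0.106), Snap25 (0.103) and Hspa8 (0.0566) did not pass in edgeR. DESeq2 called 24 genes for the interaction and 80 slopes in the second set.

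Leaving out single libraries gave 1229 to 1824 genes (709 to 973 higher, 517 to 911 lower) and kept 60 to 67 of 70 named calls. Meg3 lay between -0.48 and 0.089 (the highest without saline withdrawal replicate 3). Rich libraries had 926 to 1395 more detected genes, 4 times at an unadjusted exact permutation p under 0.05. The 100 largest genes differed by -0.42 to 0.86 points (without nonescalating replicate 4 the lowest), and 0 to 22 slopes passed in the second set. For the 500 largest genes the difference was -2.44 points (unadjusted exact permutation p = 0.0272). Low totals limit the rich libraries most: 3 counts are up to 1.58 CPM there and up to 0.880 CPM in the poor ones.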
